A study of Mus musculus with 12 samples.

Results

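Ppt1, Ggcx, Dhx57 and Smim20 are 4 of the 23185 genes measured in calf muscle of db/db mice after adenovirus carrying shRNA, and their transcripts were higher than control in all 3 groups that received a virus against a target. They were picked on this pattern, so their differences from control are given as a description, with no test. Each was read from 1 probe set, and all 4 were found. Of 23185 genes, 5 were higher at a limma adjusted p below 0.05 in each of the 3 comparisons with control. These 4 are among them and the fifth is Copz2, which encodes a coat protein of COPI vesicles.

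The study placed gastrocnemius RNA of 12 mice on 1-colour Affymetrix arrays, 3 animals in each of 4 groups. All animals were BKS.Cg-Dock7m +/+ Leprdb/J mice aged 12 weeks, which lack a working leptin receptor and are obese and diabetic. All received adenovirus coding for shRNA, which directs a matching transcript to degradation, and were killed 1 week later. The control group received control shRNA virus only, and the LCN13 and TSC22D4 groups each received equal amounts of control virus and of the named virus. The TSC22D4+LCN13 group received both target viruses in equal amounts and no control virus, so the total dose was the same in all groups. The dose of control virus therefore falls as target virus is added, and these cannot be told apart. The 3 animals per group were picked as representative of the 7 treated, and 12 arrays limit the precision. Such a pick is not a random draw, so the spread within groups may be lower than among all 7.

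Genes of muscle fibres, the labelled tissue, were high on all arrays: the mean log2 level of 10 of them, among them Ckm, Acta1 and Myh4, lay between 13.66 and 13.72, beside an array median of 5.45. Tsc22d4 itself lay between 6.43 and 7.01 and was not lower with its virus (log2 difference 0.24, adjusted p = 0.619). The transcript of LCN13, listed as Obp2a, lay between 4.90 and 4.97, close to the lowest value of 4.78, and says nothing on its knockdown. The groups are therefore named by the virus given.

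The 4 genes belong to different compartments of the cell. Ppt1 encodes palmitoyl-protein thioesterase, a lysosomal enzyme that removes fatty acyl groups from cysteines of proteins under breakdown, and its loss causes an infantile form of neuronal ceroid lipofuscinosis. Ggcx encodes gamma-glutamyl carboxylase of the endoplasmic reticulum, which uses reduced vitamin K to carboxylate glutamates of clotting factors and of matrix and growth-arrest proteins. Dhx57 encodes a putative RNA helicase of the DExH family. Smim20 encodes a small protein of the inner mitochondrial membrane (MITRAC7) that holds newly made COX1 during assembly of cytochrome c oxidase, and the peptide phoenixin is derived from it.

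The genes lie on chromosomes 4, 6, 17 and 5. Their promoters are shown because the genes were higher together, to let their letters be compared. Each runs from 250 bases before to 50 after the gene's start in RefSeq on GRCm38.p6, at chr4:122835977-122836276 (plus strand) for Ppt1, chr6:72414058-72414357 (plus) for Ggcx, chr17:80290427-80290726 (minus) for Dhx57 and chr5:53266856-53267155 (plus) for Smim20. Capitals mark matches, on either strand, to any of 5 motifs. They are the E-box CACGTG, the core of an element shared by many lysosomal genes, and the GC box, GGGCGG. The others are the CCAAT box, the TATA box, searched as TATAAA, and the ETS motif, searched as CCGGAAG.
Ppt1: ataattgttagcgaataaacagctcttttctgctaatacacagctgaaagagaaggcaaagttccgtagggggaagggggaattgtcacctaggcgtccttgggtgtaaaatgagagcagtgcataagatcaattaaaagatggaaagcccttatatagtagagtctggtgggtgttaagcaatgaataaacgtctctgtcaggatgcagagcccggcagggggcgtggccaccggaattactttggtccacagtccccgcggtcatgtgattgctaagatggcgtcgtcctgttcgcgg
Ggcx: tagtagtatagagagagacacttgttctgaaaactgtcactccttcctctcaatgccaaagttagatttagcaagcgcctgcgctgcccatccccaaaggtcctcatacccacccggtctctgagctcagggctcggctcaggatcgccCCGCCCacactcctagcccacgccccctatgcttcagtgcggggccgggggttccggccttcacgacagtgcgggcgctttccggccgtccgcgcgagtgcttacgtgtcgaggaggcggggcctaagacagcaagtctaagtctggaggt
Dhx57: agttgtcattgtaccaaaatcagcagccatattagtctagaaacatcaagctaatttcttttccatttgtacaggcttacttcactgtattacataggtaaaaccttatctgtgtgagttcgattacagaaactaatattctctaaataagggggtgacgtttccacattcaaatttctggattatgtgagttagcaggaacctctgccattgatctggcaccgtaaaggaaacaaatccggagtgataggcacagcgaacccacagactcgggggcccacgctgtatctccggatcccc
Smim20: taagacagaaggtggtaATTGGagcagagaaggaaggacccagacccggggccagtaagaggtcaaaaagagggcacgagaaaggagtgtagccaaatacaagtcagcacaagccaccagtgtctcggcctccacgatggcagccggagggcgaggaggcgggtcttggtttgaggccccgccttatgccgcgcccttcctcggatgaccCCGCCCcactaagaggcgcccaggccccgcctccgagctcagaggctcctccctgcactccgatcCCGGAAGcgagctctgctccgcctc

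No motif of the 5 was present in all 4 windows. Ggcx held 1 GC box at -101 to -96 (counted from 0 at the start, on the opposite strand) and no other match. Smim20 held a GC box at -40 to -35 and a CCAAT box at -233 to -229, both on the opposite strand, and the ETS motif at 25 to 31 on its own strand. No matches overlapped. The Ppt1 and Dhx57 windows held none of the 5. Only exact letters were searched, so near variants of a motif were not counted. Of 32851 promoters of this length, 35.7% held the GC box, 37.4% the CCAAT box, 13.6% the TATA box, 8.86% the ETS motif and 7.15% the E-box. The windows also differed in base composition: GC made up 60.3% in Ggcx and 63% in Smim20 but 48.7% in Ppt1 and 42.7% in Dhx57, against a median of 52.7% over all promoters. These are matches of letters and say nothing on binding.

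Ppt1 measured 9.46, 9.48 and 9.43 on the log2 scale in control animals 18, 19 and 20. It measured 9.84, 9.77 and 9.67 in LCN13 animals 21, 22 and 23. It measured 9.90, 9.94 and 9.93 in TSC22D4 animals 25, 26 and 27 and 9.99, 9.94 and 9.94 in TSC22D4+LCN13 animals 29, 30 and 32. All 9 target arrays lay above all 3 control arrays, and the LCN13 arrays formed a step between control and both groups that received TSC22D4 virus. The log2 difference from control was 0.47 (SE 0.0391) for TSC22D4, 0.30 (SE 0.0391) for LCN13 and 0.50 (SE 0.0391) for TSC22D4+LCN13. As folds these are 1.38, 1.23 and 1.42.

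Ggcx, the carboxylase, measured 7.15, 7.11 and 7.23 in the control arrays. It measured 7.67, 7.50 and 7.43 with LCN13 virus, 7.51, 7.57 and 7.51 with TSC22D4 virus and 7.94, 7.82 and 7.96 with both. The arrays fell into 3 levels that did not overlap: control, then both groups with 1 target virus, then the group with both. The difference from control was 0.37 (SE 0.0604) for TSC22D4 and 0.37 (SE 0.0604) for LCN13, a fold of 1.29 in each. For TSC22D4+LCN13 it was 0.74 (SE 0.0604), a fold of 1.67 and the largest of the 12 differences of these genes from control.

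Dhx57, the helicase, measured 7.56, 7.53 and 7.59 in control, 7.80, 7.84 and 7.75 with LCN13 virus, 7.79, 7.80 and 7.80 with TSC22D4 virus and 7.87, 7.82 and 7.91 with both. Every target array lay above every control array, and the TSC22D4 arrays lay within the range of the LCN13 arrays. Differences from control were 0.24 (SE 0.0321), 0.24 (SE 0.0321) and 0.31 (SE 0.0321) for TSC22D4, LCN13 and TSC22D4+LCN13. The largest is a fold of 1.24.

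Smim20, the assembly factor, measured 10.035, 9.996 and 10.107 in control, 10.236, 10.305 and 10.318 with LCN13 virus, 10.234, 10.338 and 10.287 with TSC22D4 virus and 10.205, 10.223 and 10.273 with both. The 3 target groups overlapped each other and none overlapped control. Differences from control were 0.24 (SE 0.0387), 0.24 (SE 0.0387) and 0.19 (SE 0.0387) in the same order, with 1.18 the largest fold. Of the 4 genes it was the only 1 whose difference was smallest in the group with both viruses.

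**Figure D1:**
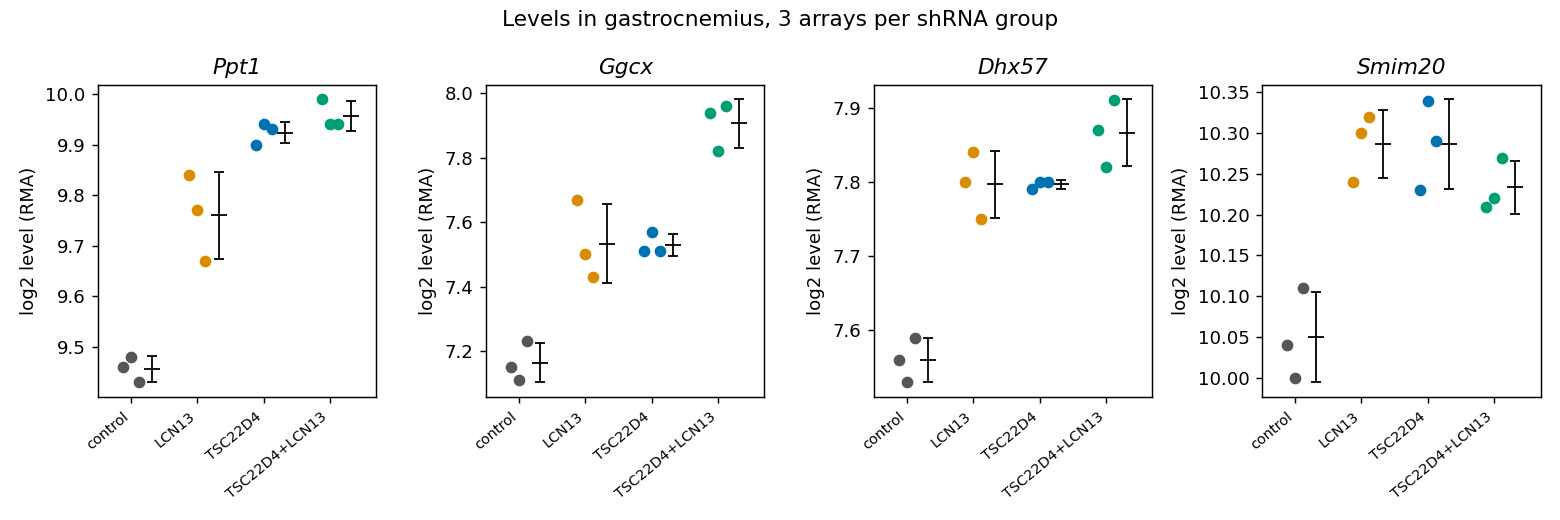
Log2 level (RMA) of Ppt1, Ggcx, Dhx57 and Smim20 on each of 12 arrays, 3 per shRNA group, with the group mean and SD beside the points; each panel has its own axis, which does not start at 0. All 9 target arrays lie above the 3 control arrays in each panel, and Ggcx shows a further step in the TSC22D4+LCN13 group.

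The pattern that chose these genes is a description of them and carries no support. By the threshold used, 12 genes (0.0518% of 23185) were higher for TSC22D4, 55 (0.237%) for LCN13 and 399 (1.72%) for TSC22D4+LCN13, and all 4 members are in each count by choice. In 297 genes (1.28%) all 9 target arrays lay above all 3 control arrays, again with all 4 members by choice. Ordered by the gap between the lowest target array and the highest control array, Ggcx was at place 17 with a gap of 0.20, Ppt1 at 21 with 0.18, Dhx57 at 31 with 0.15 and Smim20 at 63 with 0.10. Of those 297 genes, 144 were above control in each group by at least the 0.19 that was Smim20's smallest difference, so the size of the change does not set the 4 genes apart.

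The widest gap, 0.41, was that of AF357425, which has no gene name and was left out by the rule for named genes. The next 5 genes had wider gaps than the members and varied more between arrays. Erg28, an endoplasmic reticulum scaffold of sterol synthesis, had a gap of 0.39 and differences of 0.54, 0.61 and 0.83 for TSC22D4, LCN13 and TSC22D4+LCN13. Fkbp14, a prolyl isomerase of the endoplasmic reticulum, had a gap of 0.35, and Anxa5, a calcium-dependent binder of phospholipid, 0.33. Islr, a secreted leucine-rich repeat protein, had 0.30 and Dab2, an endocytic adaptor, 0.29. The SD of these 5 genes within groups was between 0.158 and 0.216, at the 89.6th to 96th percentile of all genes. It was 0.0376 for Dhx57, 0.0476 for Smim20, 0.0482 for Ppt1 and 0.0786 for Ggcx, against a median of 0.0643.

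The value that admits a gene is thus its difference set against this spread. By the largest of the 3 adjusted values from limma, Ggcx was the last gene inside the threshold, and Smim20 came next. Those values chose the genes and are no test of them. Just outside were Tmem47, a protein of cell junctions, at 0.0533 with differences of 0.47, 0.63 and 0.52 for TSC22D4, LCN13 and TSC22D4+LCN13, and Anxa5 at 0.0567 with 0.68, 0.77 and 1.02. Their SD within groups, 0.107 and 0.158, was above that of each of the 4 genes.

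**Figure D2:**
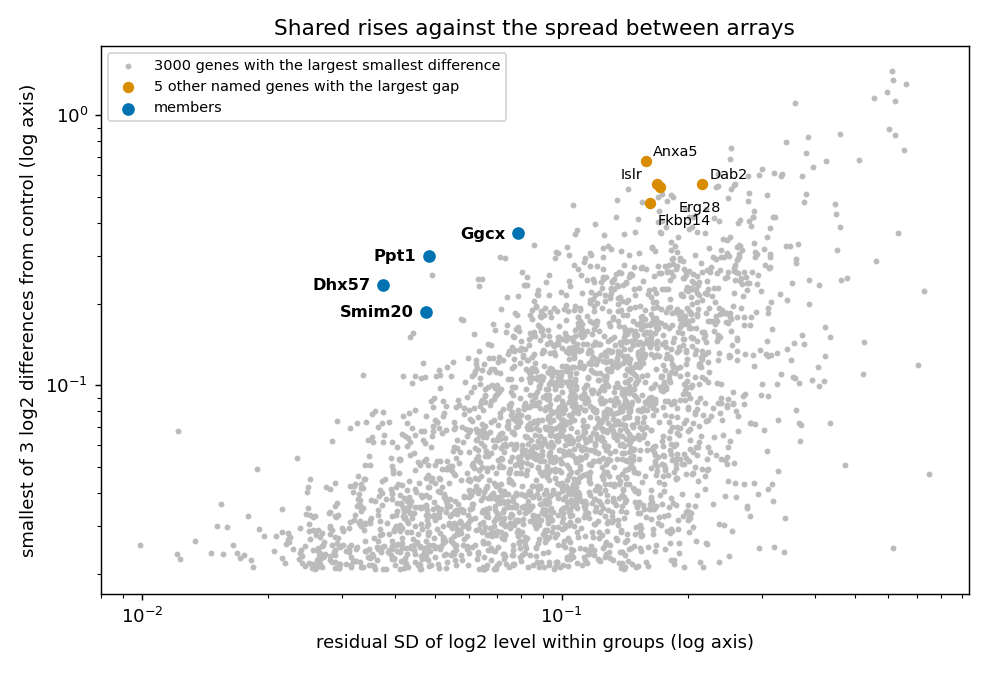
Smallest of the 3 log2 differences from control (vertical, log axis) against the residual SD of the log2 level within groups (horizontal, log axis) for the 3000 genes in which that difference is largest, out of 5330 above control in all 3 groups. Ppt1, Ggcx, Dhx57 and Smim20 lie on the left side of the cloud at moderate heights, by the rule that chose them, while Erg28, Fkbp14, Anxa5, Islr and Dab2 lie higher and to the right.

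Whether the 3 target groups differed from each other was tested for the 4 genes in 3 pairs of groups, 12 tests in all, each adjusted over 23185 genes. The control mean does not enter these differences, but the control arrays are part of the spread pooled over all 12 arrays. The target arrays and that spread also entered the choice of the genes, so the SE may be low. Ggcx was higher in the TSC22D4+LCN13 arrays than in the LCN13 arrays by 0.37 (SE 0.0604, 95% interval 0.24 to 0.51, adjusted p = 0.014), a fold of 1.29, and all 3 arrays of the first lay above all 3 of the second. Ppt1 was higher in the same comparison by 0.20 (SE 0.0391, interval 0.11 to 0.29, adjusted p = 0.0268), again with no overlap. In that comparison 1.32% of all genes were higher, and 2 of the 4 genes passed. Exact permutation of the 6 arrays, two-sided, gave p = 0.1 for both, the smallest that 3 against 3 allows.

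Markers of other cells also differed between these groups. With both viruses against LCN13, 3 of 4 red cell markers and 1 of 9 macrophage markers passed as higher, and 4 of 4 and 9 of 9 were above 0 (medians 1.10 and 0.35). Of 10 hepatocyte markers 1 was above 0 and none passed (median -0.41), and of 12 tendon and fibroblast markers 10 were above 0 and none passed (median 0.07). Their part in the Ggcx and Ppt1 differences was not tested.

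The calls of Ggcx and Ppt1 depended on the fit. When limma was given the 6 arrays of these groups alone, adjusted p was 0.104 for Ggcx and 0.15 for Ppt1. Ppt1 also lost its call without LCN13 animal 22 (adjusted p = 0.0562) and without TSC22D4+LCN13 animals 29 (adjusted p = 0.0734) or 32 (adjusted p = 0.0607), while Ggcx passed in all 12 fits that left out 1 array, with 0.0492 as the largest adjusted p.

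Dhx57 and Smim20 did not pass in this comparison, with differences of 0.07 (interval -0.002 to 0.14, adjusted p = 0.251) and -0.05 (interval -0.14 to 0.03, adjusted p = 0.493). Against TSC22D4 virus alone, Ggcx was 0.37 higher in the group with both viruses (SE 0.0604, interval 0.24 to 0.51, adjusted p = 0.136) with no overlap of arrays, and it did not pass. In that comparison 0 of 23185 genes (0%) passed in limma, against 2434 at an unadjusted p below 0.05, and the smallest adjusted p was 0.0788. Ppt1 differed there by 0.04 (interval -0.05 to 0.12, adjusted p = 0.806), Dhx57 by 0.07 (interval -0.003 to 0.14, adjusted p = 0.501) and Smim20 by -0.05 (interval -0.14 to 0.03, adjusted p = 0.687).

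Between the groups with 1 target virus each, 0.125% of genes passed in either direction and none of the 4 was among them. Ppt1 was 0.165 higher with TSC22D4 than with LCN13 virus (SE 0.0391, interval 0.08 to 0.25, adjusted p = 0.107), its 3 TSC22D4 arrays above its 3 LCN13 arrays. Ggcx differed by -0.004 (interval -0.14 to 0.13, adjusted p = 0.989), Dhx57 by 0.001 (interval -0.07 to 0.07, adjusted p = 0.993) and Smim20 by 0 (interval -0.09 to 0.09, adjusted p = 1). Thus the order of group means was LCN13, TSC22D4, TSC22D4+LCN13 for Ppt1, where only the last differed from the first past the threshold. For Ggcx the order was LCN13 and TSC22D4 together, then TSC22D4+LCN13, and for Dhx57 and Smim20 no pair of target groups passed, although the 3 Dhx57 arrays with both viruses lay above the 3 with TSC22D4.

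As a description, the 2 differences of the groups with 1 target virus sum to 0.74 for Ggcx, beside 0.74 measured with both viruses. For Ppt1 they sum to 0.77 beside 0.50, for Dhx57 to 0.47 beside 0.31 and for Smim20 to 0.48 beside 0.19. These sums use the control arrays more than once, and no test was made of them.

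**Figure D3:**
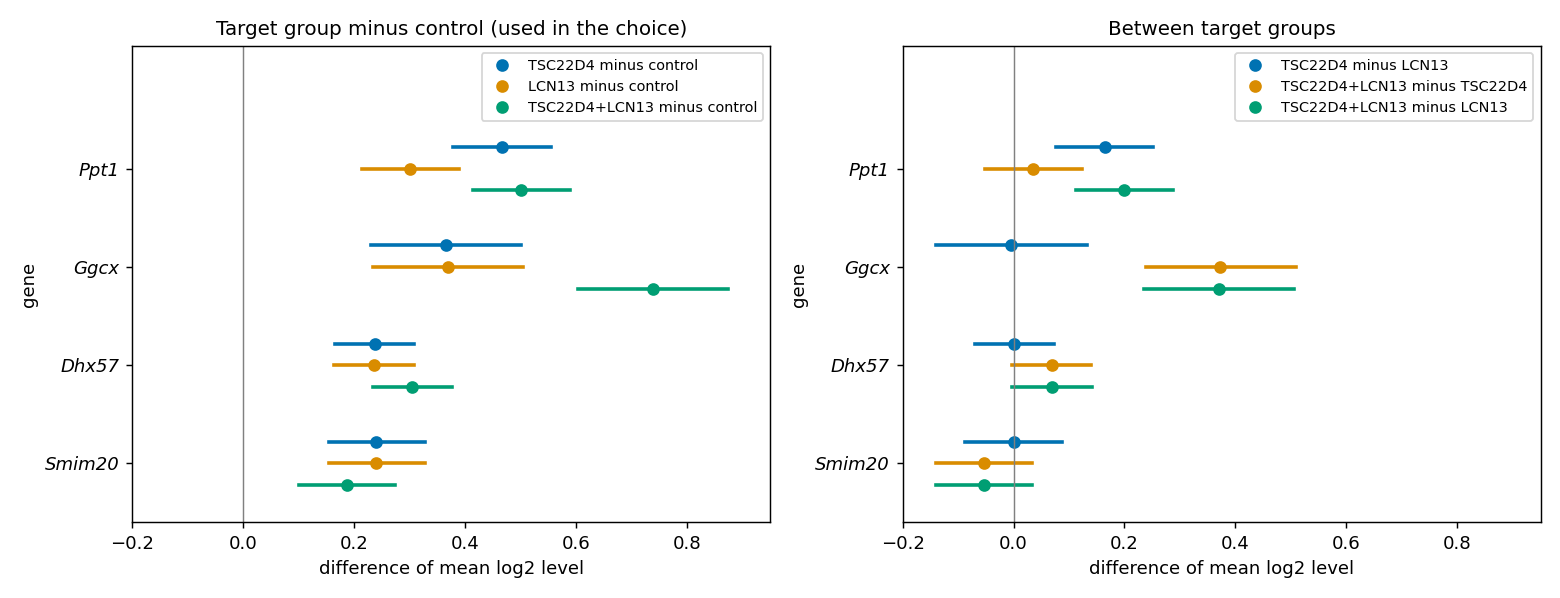
Differences of mean log2 level with 95% intervals from limma for Ppt1, Ggcx, Dhx57 and Smim20, on the left between each target group and control (the contrast by which they were chosen) and on the right between target groups. On the right only Ggcx and Ppt1 have intervals clear of 0, and among those TSC22D4+LCN13 minus LCN13 passed after adjustment for both genes.

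Across the 12 arrays the levels of Ppt1, Ggcx and Dhx57 followed each other (Pearson r of 0.88 for Ppt1 with Ggcx, 0.92 for Ppt1 with Dhx57 and 0.91 for Ggcx with Dhx57). These correlations carry the step from control that all were chosen for. Within groups, after group means were removed, r was 0.60, 0.27 and 0.64 for the same pairs. For Smim20 with Ppt1, Ggcx and Dhx57, r was 0.74, 0.61 and 0.84 over 12 arrays and -0.51, 0.05 and 0.37 within groups. Over the 9 target arrays alone it was -0.49, -0.60 and -0.32 for these pairs, beside 0.65 for Ppt1 with Ggcx, 0.56 for Ppt1 with Dhx57 and 0.82 for Ggcx with Dhx57.

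The genes most like each member over the 12 arrays, by Pearson r, were again genes with a step from control. For Ggcx they were Copz2 (r of 0.96), Yif1b (0.96), a membrane protein of transport between endoplasmic reticulum and Golgi, and Fkbp14 (0.94). Copz2 differed from control by 0.29, 0.26 and 0.59 for TSC22D4, LCN13 and TSC22D4+LCN13, Yif1b by 0.27, 0.16 and 0.44 and Fkbp14 by 0.56, 0.47 and 0.91. All 3 were farthest from control in the group with both viruses, as Ggcx was, which their choice by r over the same arrays favours.

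For Ppt1 the nearest were Pebp4 (0.95), Dhx57 (0.92) and Txndc9 (0.92), a thioredoxin-domain protein. For Dhx57 they were Pebp4 (0.96), Znrd1 (0.94), a subunit of RNA polymerase I, and Btnl9 (0.92), of the butyrophilin family. Pebp4, of the phosphatidylethanolamine-binding family, differed from control by at most 0.10 at a mean level of 5.26, below the array median of 5.45. Smim20 had weaker matches: Mir495 (0.88), at a mean level of 4.86 near the lowest value on the arrays, Nceh1 (0.87), a hydrolase of cholesterol esters, and Lrrn1 (0.87), a leucine-rich repeat membrane protein.

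No gene on 4 lists of enzymes and lysosomal proteins that work beside Ppt1 passed as higher in the groups with 1 target virus. Of 11 other measured genes of ceroid lipofuscinosis, which encode lysosomal and membrane proteins, none passed in any comparison with control, and their median differences were 0.03, -0.09 and -0.02 for TSC22D4, LCN13 and TSC22D4+LCN13, beside medians of -0.002, 0.001 and -0.005 over all genes. Tpp1, a lysosomal peptidase, measured 0.22 (adjusted p = 0.068) and Ctsf, a cathepsin, 0.14 (adjusted p = 0.0741) for TSC22D4+LCN13. Of 8 other enzymes that remove palmitate, 1 fell with LCN13 virus, Abhd17c, a plasma membrane depalmitoylase (-0.32, SE 0.056, adjusted p = 0.0358). It lost its call in 8 of the 12 fits without 1 array, with the largest adjusted p of 0.129 without LCN13 animal 21. The medians of this list were 0.04, -0.10 and 0.06.

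Of 24 palmitoyltransferases, which add the groups that Ppt1 removes, 0 passed for TSC22D4 and LCN13. For TSC22D4+LCN13, Zdhhc9 rose by 0.41 (SE 0.0682, adjusted p = 0.0134) and Zdhhc3 fell by 0.29 (SE 0.0588, adjusted p = 0.0287). Their call was lost without control animal 20 for Zdhhc9 (adjusted p = 0.0563) and in 5 of 12 fits for Zdhhc3, with the largest adjusted p of 0.0837 without control animal 18. The list's medians were -0.001, -0.006 and -0.03. Lower calls over all genes made up 0.285%, 0.612% and 2.62% of genes for TSC22D4, LCN13 and TSC22D4+LCN13.

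Of 34 lysosomal hydrolases and membrane proteins, none passed for TSC22D4 or LCN13 and 8 passed for TSC22D4+LCN13, 7 higher and 1 lower. Over all genes the shares called higher were 0.0518% for TSC22D4, 0.237% for LCN13 and 1.72% for TSC22D4+LCN13, so calls were more frequent in the last group in general. Sgsh, a sulfatase of heparan sulfate breakdown, rose by 0.23 (SE 0.0254, adjusted p = 0.00286). Lgmn, the lysosomal protease legumain, rose by 0.55 (SE 0.0823, adjusted p = 0.00912) and Glb1, beta-galactosidase, by 0.23 (SE 0.0347, adjusted p = 0.00912). Those 3 passed in all 12 fits without 1 array. The gene that fell was Lamp1, the main membrane glycoprotein of lysosomes (-0.19, adjusted p = 0.0294), named after its value was seen. Its call was lost in 4 of those 12 fits, with the largest adjusted p of 0.0993 without control animal 20. Of the other lysosomal genes that rose, Gusb lost its call in 0 of 12 fits, Ctsa in 4, Ctsh in 7 and Arsb in 12, the last 3 with largest adjusted p of 0.0836, 0.111 and 0.138 without control animal 20. The list's medians were 0.06, 0.01 and 0.14. Its count in the group with both viruses was 4 without control animal 19 and 4 without control animal 20, 1 with the 6 arrays of the compared groups alone and 0 with the tendon score described below as a covariate.

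Macrophages are rich in lysosomes, and 2 of 9 of their markers rose in the same group, Mrc1 by 0.81 (SE 0.149, adjusted p = 0.02) and Adgre1 by 0.49 (SE 0.112, adjusted p = 0.0405). The mean log2 level of the 9 markers was between 6.58 and 6.76 in control, 6.52 and 6.86 with LCN13, 6.69 and 6.84 with TSC22D4 and 6.89 and 7.42 with both viruses. Their part in the result was not tested, and in muscle taken whole a change in the number of such cells and in RNA per cell cannot be told apart.

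Around Ggcx, the vitamin K cycle had 5 other measured members, and 1 rose with LCN13 virus and another with both viruses. Over all genes 0.237% were called higher with LCN13 virus and 1.72% with both. Calu, calumenin, a calcium-binding protein of the endoplasmic reticulum that inhibits gamma-carboxylation, rose by 0.40 with LCN13 (SE 0.0743, adjusted p = 0.0431) and measured 0.15 (adjusted p = 0.614) with TSC22D4 and 0.25 (adjusted p = 0.0965) with both. Vkorc1, the reductase that supplies Ggcx with vitamin K in its active form, rose by 0.71 with both viruses (SE 0.167, adjusted p = 0.0466) and measured 0.32 (adjusted p = 0.626) with TSC22D4 and 0.64 (adjusted p = 0.132) with LCN13. Each lost its call in 10 of 12 fits without 1 array, with the largest adjusted p of 0.177 for Calu without control animal 20 and 0.126 for Vkorc1 without TSC22D4+LCN13 animal 32. In Vkorc1 all 9 target arrays lay above all 3 control arrays, as in the members, with a gap of 0.17 (8.14 against 7.97). That gap was wider than those of Dhx57 (0.15) and Smim20 (0.10). Calu had a gap of 0.02, and the other measured members of the list had none. Over all genes 297 (1.28%) had such a gap. It was not particular to this list: the lysosomal genes Galc (0.013) and Ctsb (0.01) had one too. So did the cytochrome c oxidase assembly factors Cox20 (0.027) and Cox16 (0.011). These were named after their values were seen. The list's medians were 0.15, 0.01 and 0.08.

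Of 14 measured substrates of Ggcx, the vitamin K-dependent proteins, none rose. F10, clotting factor X, was lower with both viruses (-0.11, SE 0.0273, adjusted p = 0.0493) at a mean level of 5.48, near the array median, and lost this call in all 12 fits without 1 array (largest adjusted p = 0.134, without control animal 20). The medians were -0.03, 0.01 and -0.002 for TSC22D4, LCN13 and TSC22D4+LCN13.

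The family of Dhx57 held falls and no rises. Of 18 other DExH-box helicases, 2 fell for TSC22D4, 2 for LCN13 and 3 for TSC22D4+LCN13, and 3, 6 and 2 of 18 were above 0. Over all genes 0.285%, 0.612% and 2.62% were called lower in these groups. Only 0.0518%, 0.237% and 1.72% were called higher, so a lack of rises among 18 genes says little. Dhx58, the viral RNA sensor LGP2, fell by 0.95 (SE 0.0932, adjusted p = 0.00193) with TSC22D4, by 0.99 (adjusted p = 0.00142) with LCN13 and by 0.93 (adjusted p = 0.0016) with both, and passed in every fit without 1 array. Dhx38, a helicase of pre-mRNA splicing, fell by 0.26, 0.28 and 0.25 (adjusted p = 0.0244, 0.0127 and 0.00922), with its call lost in 6, 1 and 0 of 12 such fits. The largest adjusted p was 0.127 for TSC22D4, without TSC22D4 animal 26, and 0.0516 for LCN13, without LCN13 animal 23. Dhx29, a helicase of translation initiation, fell with both viruses by 0.42 (SE 0.053, adjusted p = 0.00438). The list's medians were -0.05, -0.07 and -0.06.

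Dhx58 is induced by interferon, and interferon-induced genes were lower in all 3 target groups. Of 21 measured here, 15, 18 and 18 fell and none rose in limma, where 0.285%, 0.612% and 2.62% of all genes fell. The list was chosen with earlier results of these data known, so its counts are a description. Herc6, a ligase for the ubiquitin-like ISG15, measured -1.78 (adjusted p = 1.35e-05) with TSC22D4, -1.74 (adjusted p = 1.65e-05) with LCN13 and -1.86 (adjusted p = 8.67e-06) with both. Ifit1, a binder of viral RNA, measured -2.965, -2.40 and -3.09, and Oasl2, of the oligoadenylate synthetase family, -2.065, -1.67 and -2.38. The medians were -1.42, -1.21 and -1.43. The mean log2 level of the 21 was between 7.33 and 7.70 in control and between 6.11 and 6.39 over the 9 target arrays. This shift divides the arrays as the 4 genes do, in the opposite direction, and its part in their levels was not tested.

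Around Smim20, cytochrome c oxidase had few calls. Of 23 other measured assembly factors, none passed for TSC22D4 or LCN13, and Coa5 fell with both viruses (-0.25, SE 0.0531, adjusted p = 0.0317), a call lost in 5 of 12 fits without 1 array (largest adjusted p = 0.103, without control animal 20). The medians were 0.13, -0.06 and 0.15 for TSC22D4, LCN13 and TSC22D4+LCN13, with 19, 8 and 19 of 23 above 0. In Cox20 and Cox16 of this list all 9 target arrays lay above all 3 control arrays, as in 1.28% of all genes. Their gaps were 0.027 and 0.011, and neither passed. Of 15 subunits of the enzyme none passed, with medians of -0.006, 0.08 and 0.002. Cox6a2, the subunit of heart and muscle, measured 0.26 (adjusted p = 0.0932) with LCN13, and Cox6a1, its widely expressed counterpart, 0.42 (adjusted p = 0.0915) with both viruses.

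**Figure D4:**
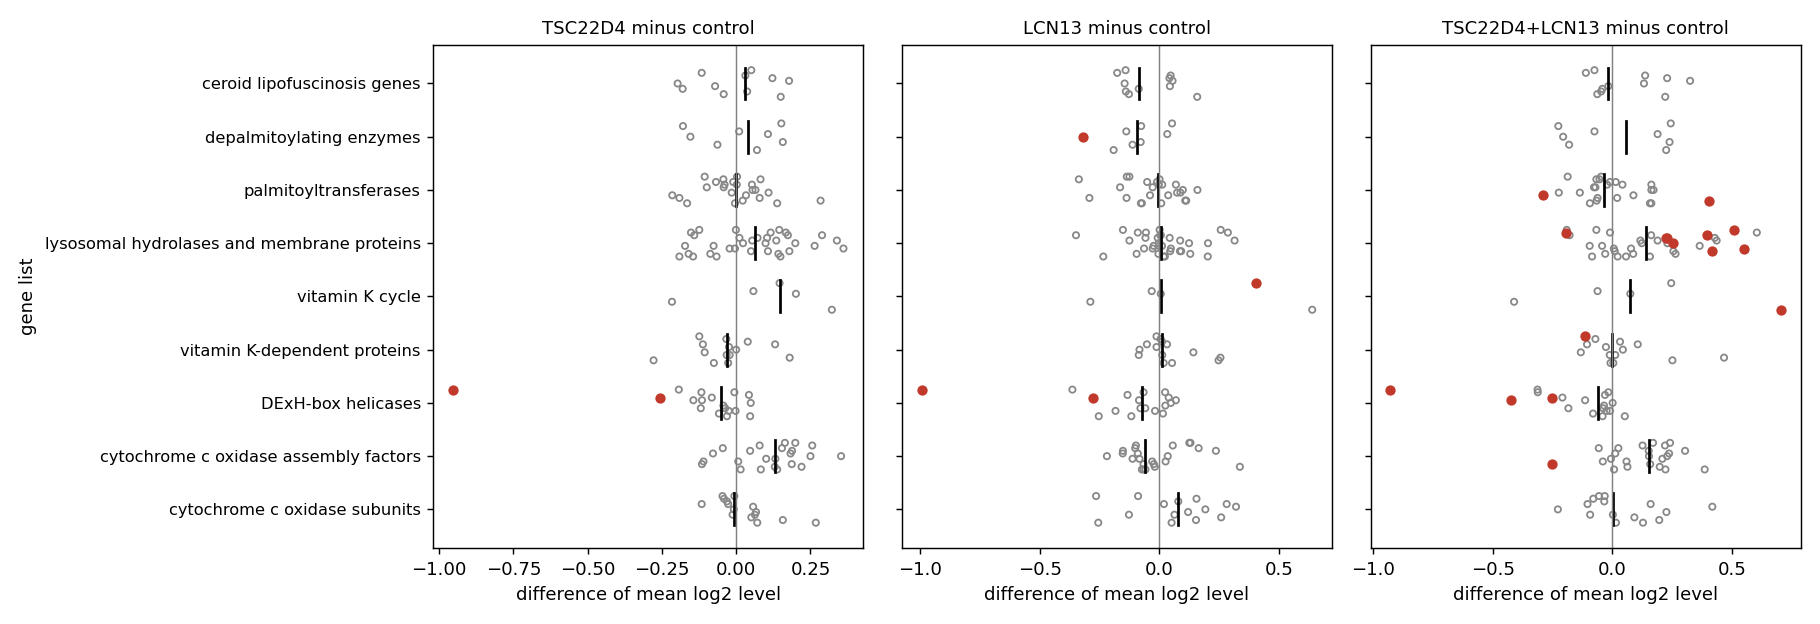
Difference of mean log2 level from control for each gene of 9 lists of genes related to the members, by target group; filled red points passed a limma adjusted p of 0.05, open points did not, and black bars are list medians. Dhx58 is the point farthest to the left in each panel, and 8 lysosomal genes are past the threshold in the TSC22D4+LCN13 panel against 0 in the others, a difference that was not tested. Over all genes 0.0518%, 0.237% and 1.72% were called higher for TSC22D4, LCN13 and TSC22D4+LCN13.

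Connective tissue in the muscle sample also divided control from target arrays in part. None of 12 markers of tendon cells and fibroblasts passed, but 11, 12 and 12 of them were above control for TSC22D4, LCN13 and TSC22D4+LCN13, and their mean log2 level was between 8.62 and 9.54 in control, 9.27 and 9.88 with TSC22D4, 9.64 and 9.93 with LCN13 and 9.54 and 10.13 with both. Tnmd, a defining tendon gene, measured 1.16, 1.65 and 1.66 above control (adjusted p = 0.405, 0.113 and 0.0541). Others moved less: Scx measured -0.069, 0.407 and 0.265 in the same order, and Cilp2 0.315, 0.262 and 0.337. The part of connective tissue in the levels of the 4 genes was not tested beyond the fit with a score that follows.

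A tendon score was made from 6 of the 12 markers: Chad, Cilp2, Comp, Fmod, Scx and Tnmd. It lay between -1.06 and 0.11 in control, 0.14 and 0.44 with LCN13, -0.37 and 0.31 with TSC22D4 and 0.05 and 0.48 with both, so it is partly bound up with group. With this score in the fit, the differences from control for TSC22D4, LCN13 and TSC22D4+LCN13 were 0.45, 0.28 and 0.48 for Ppt1, 0.39, 0.41 and 0.78 for Ggcx, 0.26, 0.27 and 0.34 for Dhx57 and 0.26, 0.27 and 0.21 for Smim20. Of 10 hepatocyte, 7 adipocyte and 7 endothelial markers none passed in any comparison with control. For TSC22D4, LCN13 and TSC22D4+LCN13, 1, 10 and 6 hepatocyte markers were above control (medians -0.11, 0.46 and 0.05), 2, 7 and 7 adipocyte markers (medians -0.09, 0.23 and 0.16) and 2, 5 and 5 endothelial markers (medians -0.12, 0.09 and 0.03). Alb, albumin, the main secreted protein of hepatocytes, measured 1.70 with LCN13 (SE 1.08, adjusted p = 0.615). Among 4 red cell markers Hbb-b1 and Alas2 were higher with both viruses (1.87 and 1.42, adjusted p = 0.0329 and 0.048). The macrophage and red cell markers were named after their values were seen.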

How the data were processed

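Total RNA of gastrocnemius from 12 mice was hybridised to 1-colour Affymetrix arrays. The deposited log2 values had been made by the authors with RMA, a method that also makes the distributions of arrays alike, per the submitters' processing notes. No version of RMA, probe set definition or genome build was given in the sources used here. Because distributions were equalised, a change of most transcripts one way would not show, and no batch, date or slide was given. Gene symbols came from the platform annotation: 23185 of 25206 probe sets had 1 symbol, 1 per gene, and no filter on dim probe sets was used.

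All genes were fitted over 12 arrays and 4 group means with limma 3.58.1 under R 4.3.3, using lmFit and then eBayes (8 residual and 1.69 prior degrees of freedom), two-sided, with Benjamini-Hochberg adjustment over all genes within a comparison and a threshold of 0.05. Each array is a separately numbered animal, and no number recurs in another group. The members and gene lists were chosen with earlier results of these data known. Named genes were the members, the 3 genes of highest Pearson r to each, the 5 other genes with the widest gap (predicted and unnamed genes left out, here AF357425), and up to 3 genes per list past the threshold, or the 2 of smallest p where none passed. The fit was checked on simulated data with independent normal values for each gene. Those data held no array effect and no correlation between genes, so they say nothing on how stable the real counts are. Promoters came from RefSeq (GRCm38.p6). Protein sequences were not used here. Alternatives were all probe sets, probe set means, genes above the median level, trend and robust options, quantile normalization, median centring, array weights, the compared groups alone, a tendon score as covariate, and each array left out.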

Additional observations from a re-analysis of the deposited data

Results flagged for a closer look

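For Ggcx the TSC22D4+LCN13 and LCN13 groups differed past the threshold in the fit over all 12 arrays, by a test of the difference itself. The level was 0.37 higher on the log2 scale with both viruses (adjusted p = 0.014 in limma, higher in 3 of 3 arrays than in every LCN13 array). For Ppt1 the same test gave 0.20 (adjusted p = 0.0268, higher in 3 of 3 arrays). Exact permutation of the arrays, two-sided, gave p = 0.1 for both, the smallest that 3 against 3 allows. The target arrays and the pooled spread also entered the choice of the genes, so the SE may be low. The LCN13 group also received control virus and the other did not, and these cannot be told apart. In the same comparison 3 of 4 red cell markers and 1 of 9 macrophage markers were higher past the threshold, with medians of 1.10 and 0.35 over their lists, and 1 of 10 hepatocyte markers was above 0 (median -0.41). Their part in both differences was not tested. With 3 arrays per group, an outlying animal cannot be told from the spread of its group. In the 12 fits that each left out 1 array, the call was lost in 3 for Ppt1 and in 0 for Ggcx. Both calls were lost when limma was given the arrays of the compared groups alone, so they depended on the spread pooled with the other arrays. The call of Ppt1 was also lost among genes above the median level and with trend and robust options.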

How the results depend on the processing

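The differences of the 4 genes from control kept their sign and moved by less than the SD within groups in each alternative. Over all groups and settings they ranged from 0.26 to 0.51 for Ppt1, 0.30 to 0.78 for Ggcx, 0.21 to 0.34 for Dhx57 and 0.16 to 0.27 for Smim20. Most settings could hardly move them. Another set of genes, other eBayes options or the compared groups alone leave group means as they are. No gene had a further probe set to average, and RMA had already made the arrays alike. Leaving out 1 array could not turn a sign, because every target array lay above every control array by choice. The call of Ppt1 between TSC22D4+LCN13 and LCN13 (difference 0.20) was lost among genes above the median level (adjusted p = 0.0582), with trend and robust options (adjusted p = 0.107) and with the compared groups alone (adjusted p = 0.15), where that of Ggcx (0.37) was lost too (adjusted p = 0.104). With 1 array left out the Ppt1 difference ranged from 0.154 to 0.239. Counts of all genes past the threshold moved more. With array weights they were 177 for TSC22D4 and 340 for LCN13 against control, 235 between TSC22D4 and LCN13 and 543 between TSC22D4+LCN13 and LCN13, in place of 78, 197, 29 and 977. With the compared groups alone, fewer arrays and degrees of freedom, they were 33, 18 and 124 against control (TSC22D4+LCN13 last), 84 between TSC22D4 and LCN13 and 0 between TSC22D4+LCN13 and LCN13. With the tendon score they were 25, 20 and 34 against control, and 2 between TSC22D4 and LCN13. The last was 67 among genes above the median level and 18 with trend and robust options. With 1 array left out the counts ranged from 36 (without TSC22D4 animal 25) to 105 for TSC22D4, from 77 (without control animal 20) to 280 for LCN13 and from 334 (without control animal 20) to 1106 for TSC22D4+LCN13 against control. They ranged from 0 (without control animal 20, among others) to 198 (without TSC22D4+LCN13 animal 30) between TSC22D4 and LCN13, from 0 to 2 between TSC22D4+LCN13 and TSC22D4, and from 318 (without LCN13 animal 21) to 1320 between TSC22D4+LCN13 and LCN13. Calls among the 9 lists of related genes numbered 2, 4 and 16 for TSC22D4, LCN13 and TSC22D4+LCN13. They were 0, 1 and 2 with the compared groups alone and 1, 0 and 0 with the tendon score. For TSC22D4 the number was 1 among genes above the median level and 1 with trend and robust options, which gave 2 for LCN13. With 1 array left out they ranged from 1 to 2, from 2 to 5 and from 8 (without control animal 20) to 16. The cause of these changes was not tested. No paired analysis was possible because animal numbers are not shared between groups. Levels near the lowest value of the arrays, such as Mir495 and Obp2a, set a limit that 12 arrays cannot lower.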
